A study of Homo sapiens with 12 samples.

Results

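The genes encoding the subunits, activators, inhibitor and assembly factors of the proteasome were followed in RNA sequencing counts from NCI-H520, an established human lung squamous cell carcinoma line. The members were all protein-coding genes whose symbol is PSMA, PSMB, PSMC, PSMD, PSME, PSMF or PSMG followed only by digits, which gave 48 of the 58302 genes in the count table. In all, 46 of them passed the filter on low counts, beside 17849 genes tested overall. The other two are the germ line form PSMA8, with 0 counts in every library, and the thymus form PSMB11, with 1 count in 1 OV-CTRL library, and neither was tested. The study asked how the overexpressed fusion transcript L1-FGGY, a retrotransposon sequence joined to the carbohydrate kinase gene FGGY, and inhibitors given against its consequences change the cells. OV-CTRL DMSO stands for cells with the control vector in 0.2% DMSO, and OV-L1-FGGY DMSO for cells overexpressing L1-FGGY in the same solvent. OV-L1-FGGY ML355 cells received 10 µM ML355, an inhibitor of 12-lipoxygenase, dissolved in DMSO. The libraries labelled NVR are named as OV-L1-FGGY cells that received 450 µM NVR, a reverse transcriptase inhibitor dissolved in DMSO. Each of the 4 groups had 3 libraries, and the medium was replaced with the agent or solvent 5 h after seeding. The number of clones behind each line and the length of treatment were not given in the sources used here. Nothing in the labels says that replicates were separate cultures, so p-values measure the spread between these libraries, which may be technical.

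The 26S proteasome degrades proteins tagged with ubiquitin. Its 20S core is a barrel of outer alpha rings (PSMA genes), which gate the entry, and inner beta rings (PSMB genes), in which PSMB6, PSMB7 and PSMB5 carry the caspase-like, trypsin-like and chymotrypsin-like sites. The 19S particle caps the core, with a ring of ATPases (PSMC genes) that unfolds the substrate and non-ATPases (PSMD genes) that bind and remove ubiquitin. In the immunoproteasome, PSMB9, PSMB10 and PSMB8 replace PSMB6, PSMB7 and PSMB5, and interferon-gamma is the best known inducer of this exchange, which shapes the peptides shown on class I molecules. When proteasome activity falls, the factor NRF1, encoded by NFE2L1, is known to raise the genes of both core and cap together.

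The libraries labelled NVR resembled the control line and not the line in their label. FGGY had 4782 to 7346 counts in the 6 OV-L1-FGGY DMSO and ML355 libraries and 78 to 103 counts in the 6 OV-CTRL and NVR-labelled ones. Within these 2 sets of libraries the correlation of log2 CPM over genes was at least 0.932, and between them at most 0.776. The NVR-labelled libraries were therefore compared with both DMSO groups, and every direction drawn from them below is that of the libraries labelled NVR. CPM here is a gene's share of its library's counts, scaled by the trimmed mean of M values (TMM). In such bulk RNA, fewer cells of a type and less RNA per cell cannot be told apart. Libraries held 16242082 to 27004768 counts, of which the members took 0.51% to 0.763%. Of the squamous markers TP63, KRT5, KRT6A, SOX2, DSG3 and KRT14, only 3 passed the filter. DSG3 and KRT6A had 0 counts throughout, and SOX2 had 0 counts in all OV-L1-FGGY DMSO and OV-L1-FGGY ML355 libraries. The squamous markers summed to 17.2 to 21.2 CPM in OV-CTRL and 8.998 to 17.2 in NVR-labelled libraries. The sums were 0.86 to 1.52 in OV-L1-FGGY DMSO and 1.70 to 3.47 in OV-L1-FGGY ML355 libraries. Fibroblast markers (COL1A1, COL1A2, DCN, LUM) summed to 335 to 349 CPM in OV-L1-FGGY DMSO, 110 to 121 in ML355 and 19.2 to 25.1 in the other libraries. All 3 that were tested were higher in OV-L1-FGGY DMSO than in OV-CTRL and lower with ML355. Endothelial markers summed to 8.89 to 9.41 CPM in OV-L1-FGGY DMSO and at most 0.69 elsewhere, neuroendocrine markers to 16.4 to 23.7 in NVR-labelled, 5.20 to 7.57 in OV-CTRL and at most 0.841 in the other libraries, and adenocarcinoma markers to 7.37 to 10.5, 4.46 to 5.34 and at most 0.789. Leukocyte markers stayed at or below 3.71 CPM, highest with ML355. The part of these markers in the proteasome results was not tested. The mitochondrially encoded mRNA share was 0.637% to 0.828% with ML355 and 5.39% to 6.10% in its DMSO control.

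Sequence upstream of the 3 immunoproteasome genes is shown because PSMB9 and PSMB10 had the largest rises of the family with ML355, and because inflammatory factors are known to act at such promoters. RefSeq promoter sequence (GRCh38.p14) matched 42 of the 48 members; PSMB6 and PSMB7 were not among them. PSMB9 lies at chr6:32844136-32859851 on the plus strand and PSMB8 next to it at chr6:32840717-32844679 on the minus strand, inside the class II region of the major histocompatibility complex, whereas PSMB10 lies at chr16:67934506-67936864 on the minus strand. The stretches are the 250 bases before the RefSeq start of PSMB9 (chr6:32853942-32854191) and PSMB10 (chr16:67936851-67937100), and the 88 bases before the start of the Ensembl canonical transcript of PSMB8 (chr6:32844048-32844135), where an exon of a PSMB9 transcript ends the stretch. They are written 5′ to 3′ on each gene's own strand. Capitals mark every match on either strand to CCAAT, GAAANNGAA (interferon response type), TTCNNNGAA (STAT type), TGACNNNGC (antioxidant response type) or GGGNNTTCC (NF-kB type), and no marked match overlaps another.
PSMB9: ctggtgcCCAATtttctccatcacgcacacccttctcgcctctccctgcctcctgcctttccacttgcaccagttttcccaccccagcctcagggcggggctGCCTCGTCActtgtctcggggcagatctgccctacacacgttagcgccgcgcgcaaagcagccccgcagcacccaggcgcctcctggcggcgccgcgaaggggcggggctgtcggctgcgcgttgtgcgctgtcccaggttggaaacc
PSMB10: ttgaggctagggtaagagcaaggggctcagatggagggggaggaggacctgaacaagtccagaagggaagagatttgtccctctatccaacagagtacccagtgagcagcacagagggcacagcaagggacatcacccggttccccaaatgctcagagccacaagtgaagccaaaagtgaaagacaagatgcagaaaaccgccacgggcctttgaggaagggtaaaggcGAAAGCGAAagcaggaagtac
PSMB8: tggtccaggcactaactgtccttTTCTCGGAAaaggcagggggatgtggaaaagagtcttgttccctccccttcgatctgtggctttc
Distances are from the first printed base of a match to the start. PSMB10 held an interferon response type match 21 bases before its start. PSMB8 held a STAT type match 65 bases before its start, and PSMB9 an antioxidant response type match 148 bases before its start and a CCAAT box 243 bases before it. None of the interferon, STAT or NF-kB type letters was in the PSMB9 window, which says only that these letters are absent there. Across the 250 bases before each of 35116 RefSeq starts, the interferon response type occurred in 6.88% of windows and before 5 of the 42 members (PSMA4, PSMB4, PSMB10, PSME2 and PSMG4). The antioxidant response type, to which NRF1 and NRF2 with small MAF partners are known to bind, occurred in 10.9% of all windows and before 13 members (30.95%). Those 13 were PSMA4, PSMB3, PSMB9, PSMC5, PSMD3, PSMD5, PSMD9, PSMD12, PSME1, PSME2, PSME4, PSMG1 and PSMG2. CCAAT boxes occurred before 19 members against 32.0% of windows, the STAT type before 7 against 6.57%, and the NF-kB type before 6 against 5.78%. PSMB8 is among these 6, with a match in its windows that lies outside the printed stretch. Members were counted by gene, and a gene such as PSMB8 can have several windows. Shares of members and shares of windows are therefore unlike measures, and enrichment was not tested.

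Levels of single members are compared per length. On the TPM scale, which divides counts by the length of the Ensembl canonical transcript before they are set to a common sum, the alpha subunit PSMA7 had the highest mean in every group, from 659 ± 19.4 (SD, n = 3) in ML355 to 971 ± 31.9 in OV-CTRL. PSMB4 came next in each, at 654 ± 32.6 in OV-L1-FGGY DMSO, where it and PSMA7 (660 ± 72.3) did not differ beyond their spread. Nor did PSMB4 (655.9 ± 38.0) and PSMB3 (654.4 ± 53.0) in OV-CTRL, or PSMB4 (620.8 ± 26.2) and PSMB6 (577.5 ± 58.8) in NVR-labelled libraries. PSMA6, PSMA2 and PSMD9 stood lowest among the tested genes of OV-CTRL, at 5.30, 3.84 and 2.39 TPM. These low values carry a counting limit. PSMA1, PSMA2, PSMA6, PSMB10 and PSMD9 share 640 to 1445 exon bases on the same strand with a second protein-coding gene model in GENCODE 44, and a counter that discards reads falling in both models leaves only the remaining reads. They ranked 8, 4, 3, 6 and 5 from the lowest mean CPM of the 48. PSMC2, which shares only 112 such bases with PMPCB, ranked 24. PSMC1 shares 4667 of its 6129 exon bases with NRDE2 on the opposite strand, and whether the counting used strand was not given in the sources used here, so its values are uncertain too.

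With ML355, 2 of the 3 immunoproteasome genes, the inhibitor gene PSMF1 and 6 of 17 cap subunits were higher. Another 3 cap subunits were lower, and 1 of 14 core subunits was called. Of the 46 members, 11 (23.9%) were higher and 4 (8.70%) lower than in OV-L1-FGGY DMSO at an edgeR adjusted p under 0.01. Of all genes tested, 21.3% were higher and 23.5% lower, so the share of higher members was near that of genes in general. The median log2 fold change was 0.15 over the members and 0.00 over all genes. Scaling by library size alone, which moved the median of all genes by -0.13, gave 7 higher and 6 lower, so 53.9% instead of 73.3% of the called members were higher.

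PSMB9, the immunoproteasome counterpart of the caspase-like subunit PSMB6, had 26.2, 35.5 and 28.1 CPM in the OV-L1-FGGY DMSO libraries in replicate order and 92.8, 78.4 and 87.5 CPM with ML355. The groups lay far apart. Its log2 fold change was 1.53 ± 0.17 (SE), a 2.88-fold rise with an edgeR adjusted p of 1.1e-06. PSMB10, the counterpart of the trypsin-like subunit PSMB7, had 0.975, 1.95 and 1.31 CPM in DMSO against 3.01, 3.24 and 10.3 CPM with ML355. ML355 replicate 3 stood above the other two, with 196 counts against 61 and 63. The log2 fold change was 1.95 ± 0.42 (edgeR adjusted p = 0.000885), and 1.14 without that library (adjusted p = 0.0035). PSMB8, the counterpart of the chymotrypsin-like subunit PSMB5, had 82.5, 91.6 and 76.5 CPM in DMSO and 110, 104 and 111 CPM with ML355. The groups did not overlap, but the log2 fold change of 0.38 ± 0.14 missed the threshold (edgeR adjusted p = 0.027). With only these groups in the fit it was 0.39 and passed (edgeR adjusted p = 0.00329).

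**Figure D1:**
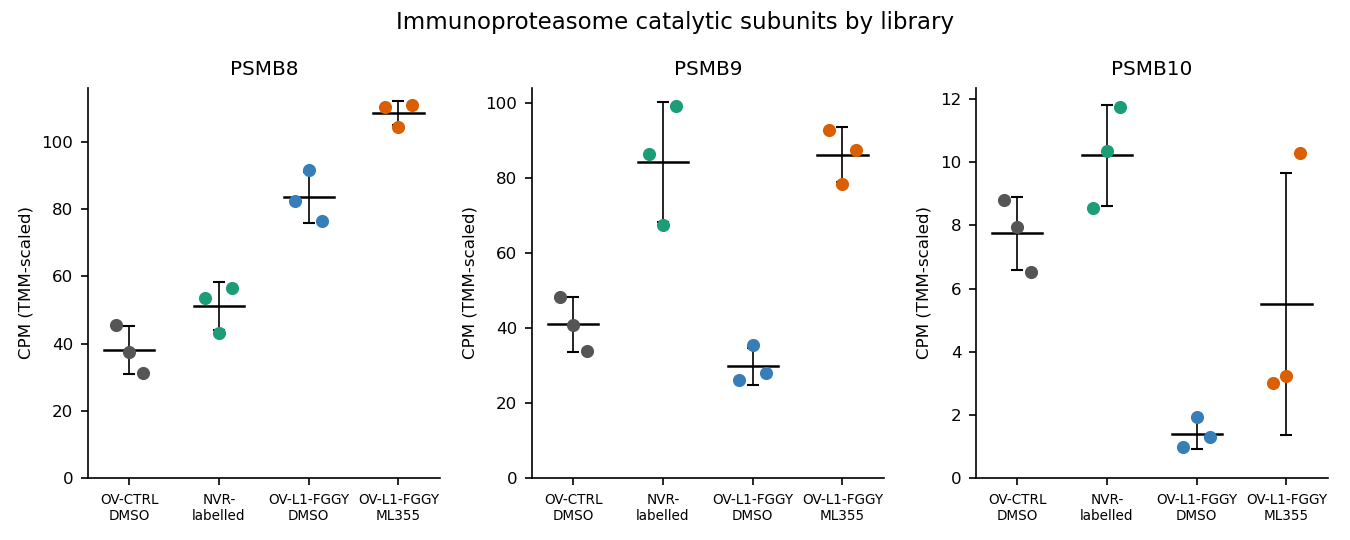
CPM of PSMB8, PSMB9 and PSMB10 (vertical axes, TMM-scaled, starting at 0) in the 4 groups; points are libraries, horizontal bars means and error bars SD of 3 libraries. PSMB9 lies between 78.4 and 92.8 CPM with ML355 against 26.2 to 35.5 in its DMSO control, and PSMB10 with ML355 is spread by replicate 3 at 10.3 CPM.

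Among the cap subunits, PSMD8, a lid component, had 109, 126 and 121 CPM in DMSO and 273, 216 and 250 CPM with ML355, a log2 fold change of 1.05. PSMD4, a ubiquitin receptor of the cap, went from 113, 121 and 106 CPM to 230, 181 and 238 CPM. In the whole 19S particle, 6 of 17 members rose (PSMD8, PSMD4, PSMC6, PSMD3, PSMD6, PSMC1) and 3 fell (PSMD2, PSMD1, PSMD12). PSMC1 and PSMD12 lost their call in 3 and 4 of the 6 fits that left out 1 library. The scaffold subunits PSMD1 and PSMD2 were among those that fell. PSMD1 fell from 73.1, 64.6 and 70.0 CPM to 45.0, 46.9 and 50.2 CPM, a log2 fold change of -0.55 ± 0.10 (edgeR adjusted p = 0.000192). PSMD2 fell from 276, 258 and 251 CPM to 176, 184 and 180 CPM, with a log2 fold change of -0.54 ± 0.10 (edgeR adjusted p = 0.000169). Neither overlapped its control.

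In the 20S core, only PSMA6 of 14 subunits passed the threshold. It had 1.43, 1.998 and 2.02 CPM in DMSO and 6.60, 4.07 and 3.89 CPM with ML355, a log2 fold change of 1.41 ± 0.30 (edgeR adjusted p = 0.0007), from 25 to 134 counts per library. It is one of the genes with a shared exon model, and the reads of its pseudogene PSMA6P1 came to 16.6% of its own. The median over the core was 0.06. None of the 7 assembly chaperones (PSMD5, PSMD9 and PSMD10 for the cap, PSMG1 to PSMG4 for the core) passed the threshold, with estimates from -0.48 to 0.36.

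Activators and the inhibitor differed among themselves. PSME3, the nuclear activator known to work without ubiquitin, fell from 139, 117 and 133 CPM to 70.8, 70.9 and 73.2 CPM, a 1.81-fold fall (log2 fold change -0.85 ± 0.10, edgeR adjusted p = 4.34e-06). PSME2, a subunit of the interferon-inducible activator PA28, rose from 68.7, 76.6 and 64.4 CPM to 134, 132 and 128 CPM, whereas its partner PSME1 had a log2 fold change of 0.33 that was not called (edgeR adjusted p = 0.0697). PSMF1, the inhibitor PI31, rose from 36.9, 38.5 and 43.3 CPM to 84.3, 66.7 and 86.5 CPM, and PSME2 and PSMF1 did not overlap with their controls. Called members in both directions thus occurred within the 19S particle and within the activators.

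**Figure D2:**
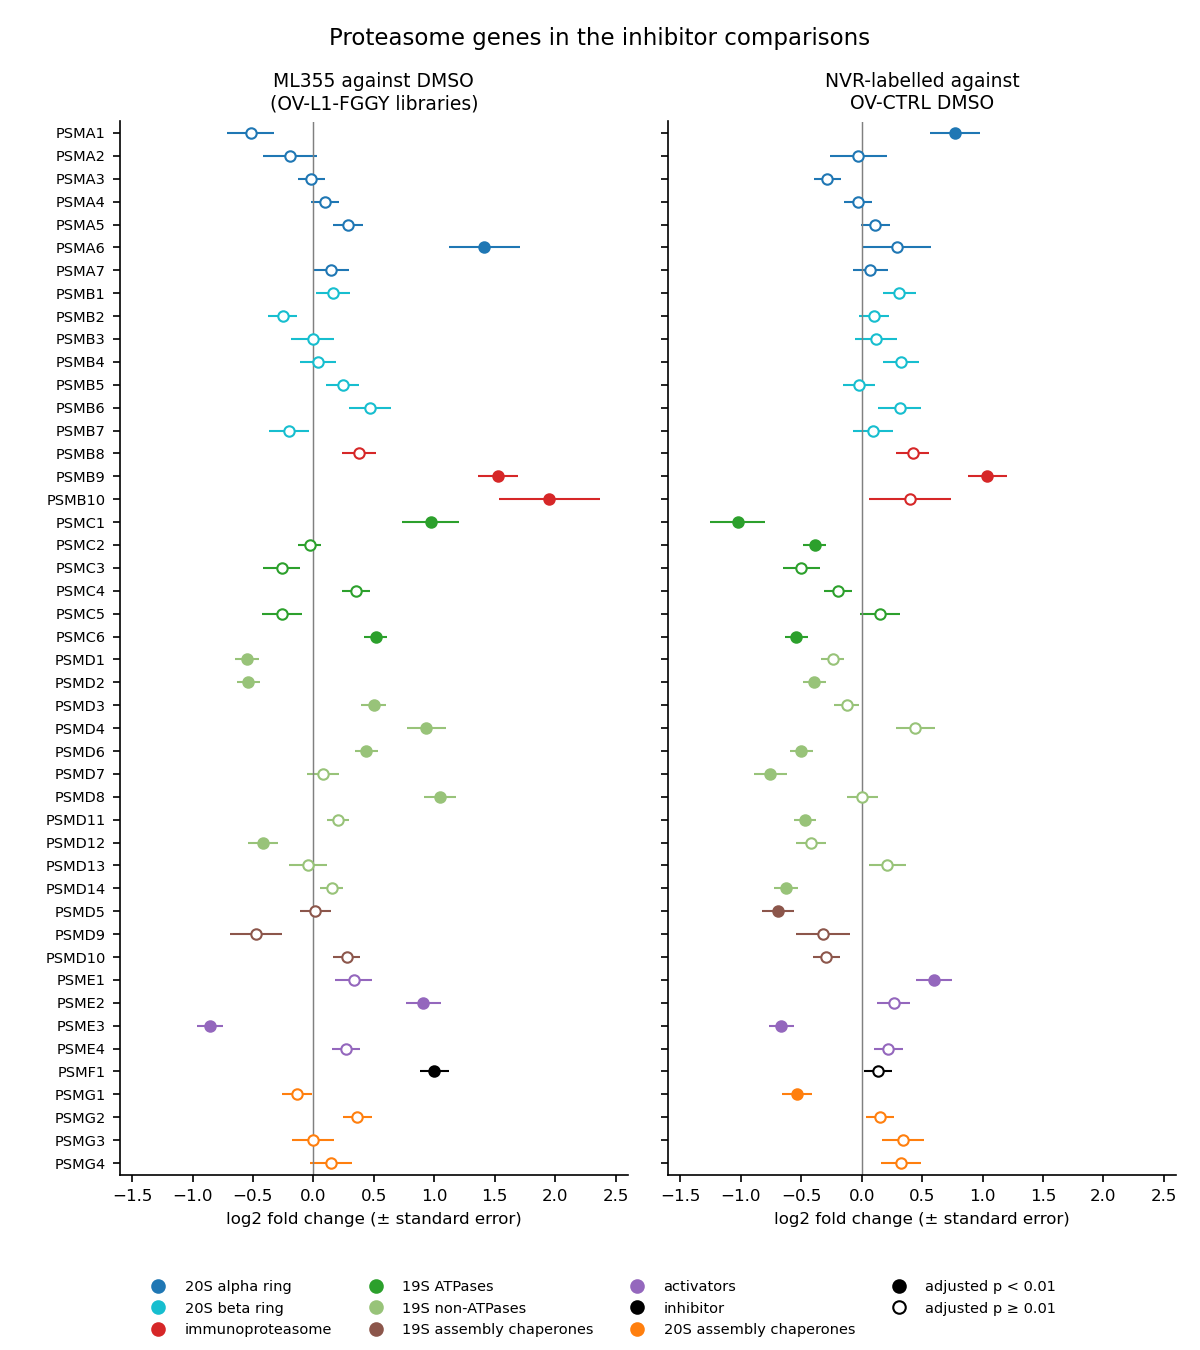
Log2 fold change (horizontal axis, bars ± SE) of the 46 tested members, ordered and coloured by structural class, for ML355 against DMSO (left) and NVR-labelled against OV-CTRL DMSO (right); filled points had an edgeR adjusted p under 0.01. With ML355, PSMB9 and PSMB10 lie highest at 1.53 and 1.95, and in the NVR-labelled libraries 8 of 17 subunits of the 19S particle lie to the left as filled points and none to the right.

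Against OV-CTRL DMSO, the libraries labelled NVR had lower levels of many 19S subunits and a higher level of PSMB9, while 1 core subunit was called. Of the 46 members, 3 (6.52%) were higher and 11 (23.9%) lower, where 14.5% of all genes tested were higher and 15.3% lower. The medians were 0.04 over the members and 0.00 over all genes. Scaling by library size alone, which moved the median of all genes by -0.15, gave 1 higher and 15 lower, so 6.25% instead of 21.4% of the called members were higher.

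In the 19S particle, 8 of 17 members were lower and 0 higher, with a median of -0.39: the ATPases PSMC1, PSMC2 and PSMC6 and the non-ATPases PSMD2, PSMD6, PSMD7, PSMD11 and PSMD14. PSMD7, partner of the deubiquitinase PSMD14 in the lid, had 52.0, 51.8 and 53.5 CPM in OV-CTRL and 31.5, 35.5 and 26.01 CPM in NVR-labelled libraries. Its log2 fold change was -0.76 ± 0.14 (edgeR adjusted p = 0.000376). PSMD14 itself had 104, 98.03 and 98.1 CPM in OV-CTRL against 61.3, 69.6 and 63.3 CPM. PSMC1 had 58.4, 55.1 and 59.7 CPM in OV-CTRL and 30.2, 32.8 and 21.8 CPM in NVR-labelled libraries, a log2 fold change of -1.03 ± 0.23 (edgeR adjusted p = 0.00183). In none of these genes did the groups overlap. PSMC2 and PSMD2, with the smallest called changes (-0.39 each), lost their call in 4 and 5 of the 6 fits that left out 1 library. The chaperone PSMD5, which holds the ATPase base during assembly, moved with the cap, from 43.3, 45.4 and 51.1 CPM to 29.0, 33.0 and 24.4 CPM (log2 fold change -0.69 ± 0.13, edgeR adjusted p = 0.00067). The remaining lower members were PSME3 and the core chaperone PSMG1. PSME3 was thus lower both with ML355 and in the NVR-labelled libraries, each against its own comparison group.

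In the 20S core, 1 of 14 members was higher (PSMA1) and 0 were lower, with a median of 0.11. PSMA1 had 11.9, 9.23 and 9.24 CPM in OV-CTRL and 16.3, 11.3 and 24.5 CPM in NVR-labelled libraries. These ranges overlap, and its call was lost in 4 of 6 fits without 1 library. The ratio of summed core counts to summed cap counts, which does not depend on scaling, was 0.813, 0.742 and 0.722 in OV-CTRL and 0.941, 0.848 and 1.01 in NVR-labelled libraries. It was 1.10, 1.14 and 1.06 in OV-L1-FGGY DMSO and 1.03, 1.03 and 1.05 with ML355. OV-CTRL libraries were the lowest of all 12. Transcript length runs beside this contrast. Core transcripts had a median length of 1004 bases (762 to 4426) and cap transcripts of 1754 (1319 to 4390), and the log2 fold change had a Spearman correlation with length of -0.56 over the 46 members and -0.25 over 17701 genes. The 3 core genes with transcripts near the longest cap transcripts, PSMA4, PSMA5 and PSMB2, had 4378, 3815 and 4426 bases and were not called. Of the cap genes with transcripts of such length, PSMC1 (4390 bases) and PSMD11 (3850 bases) were lower, and PSMD12 (4356 bases) was not called. These few genes were picked after their values were seen, and PSMC1 carries the limit of exon bases shared with NRDE2. They do not set length apart from class. The part of length in the difference between core and cap was not tested.

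**Figure D3:**
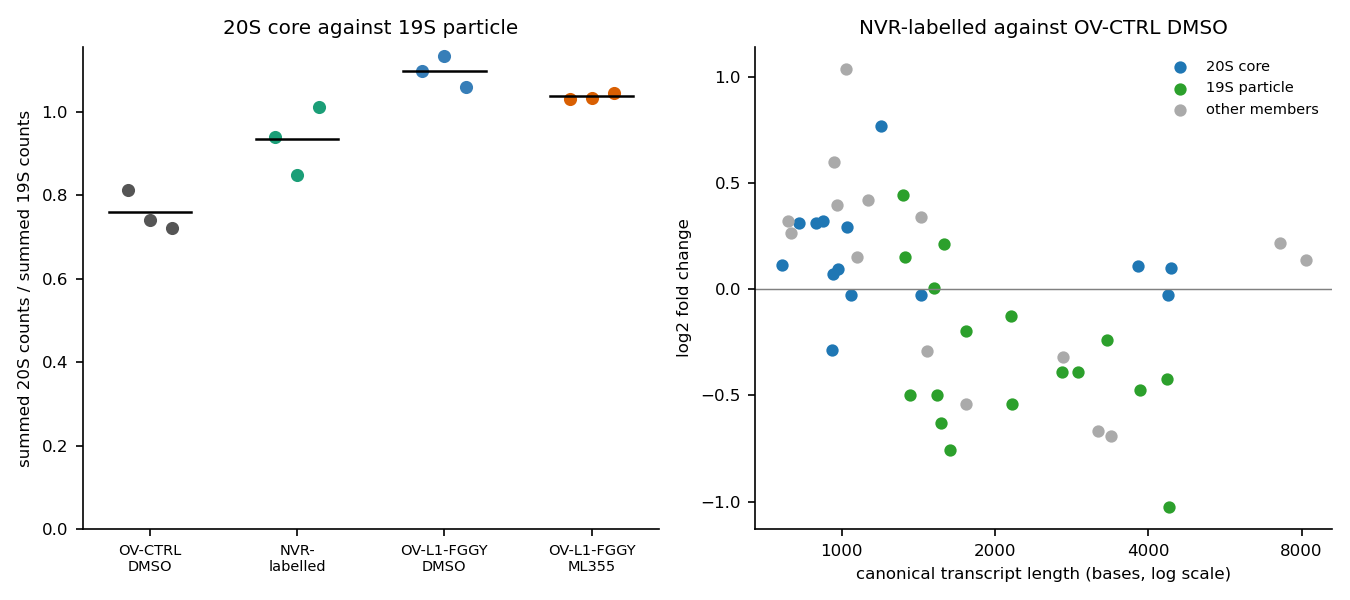
Left, ratio of summed 20S core counts to summed 19S particle counts by library (points; bars are means, axis from 0), lowest in the OV-CTRL libraries at 0.722 to 0.813. Right, log2 fold change of each tested member in NVR-labelled against OV-CTRL DMSO (vertical axis) by canonical transcript length in bases (log axis), with a Spearman correlation of -0.56 over 46 members; most cap genes (green) lie below 0 and most core genes (blue) near or above it.

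PSMB9 was higher in the NVR-labelled libraries as well, at 86.4, 67.4 and 99.2 CPM against 48.4, 40.9 and 33.8 CPM in OV-CTRL, without overlap. Its log2 fold change of 1.04 ± 0.16 was a 2.05-fold difference (edgeR adjusted p = 0.000107), called in all 6 fits that left out 1 library. PSMB8 overlapped between the groups, at 53.5, 43.2 and 56.7 CPM against 45.6, 37.5 and 31.4 CPM, with a log2 fold change of 0.42 ± 0.14 (edgeR adjusted p = 0.0215). DESeq2 called it at 0.46 (adjusted p = 0.00697), as did edgeR without OV-CTRL replicate 1 (0.57, adjusted p = 0.00382) and without NVR-labelled replicate 2 (0.53, adjusted p = 0.00389). PSMB10 stood at 8.56, 10.4 and 11.7 CPM against 8.79, 7.94 and 6.52 CPM, and its difference of 0.40 ± 0.34 was not called (edgeR adjusted p = 0.363). PSME1, the PA28 subunit, had 285, 229 and 324 CPM against 221, 170 and 162 CPM, a log2 fold change of 0.60 ± 0.15 (edgeR adjusted p = 0.00437). That call was lost in 4 of 6 fits without 1 library, in which the estimate fell to 0.49 at the lowest. It was also lost in edgeR fits with library size alone (0.43, adjusted p = 0.014) and with only these groups (0.60, adjusted p = 0.023). The count of 3 higher members ranged from 1 to 9 when 1 library was left out. It was 9 without NVR-labelled replicate 2, 5 without OV-CTRL replicate 1, and 1 without any single one of the other four.

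The RNA balance of each catalytic pair can be read within a library, where scaling plays no part. It does not show which subunits were built into proteasomes, and the PSMB10 counts carry the limit of shared exon bases given above. The PSMB9 share of PSMB9 and PSMB6 together, on the TPM scale, was 10.8%, 12.0% and 11.1% in OV-CTRL, 17.9%, 18.4% and 16.2% in NVR-labelled, 16.1%, 19.6% and 19.2% in OV-L1-FGGY DMSO and 31.8%, 30.1% and 33.8% in ML355 libraries. ML355 libraries were the highest and OV-CTRL the lowest, without overlap with any other group. The log2 ratio of PSMB9 to PSMB6 counts was 1.07 higher with ML355 than in DMSO (2.09-fold) and 0.74 higher in NVR-labelled than in OV-CTRL libraries (1.67-fold). Both had an exact two-sided permutation p of 0.1, the smallest that 3 against 3 libraries allow, so no ratio could reach 0.05, and over the 12 ratio tests the adjusted value was 0.133. The PSMB8 share of PSMB8 and PSMB5 was 18.0%, 17.9% and 17.2% in OV-CTRL, 23.5%, 22.2% and 22.4% in NVR-labelled, 43.1%, 41.4% and 36.9% in OV-L1-FGGY DMSO and 41.1%, 43.2% and 43.9% in ML355 libraries. Here the step lay between the sets of libraries. The ratio was 1.66 higher on the log2 scale in OV-L1-FGGY DMSO than in OV-CTRL (3.16-fold, exact p = 0.1), and it overlapped between ML355 and DMSO (0.14, exact p = 0.4). The PSMB10 share of PSMB10 and PSMB7 stayed under 6% in every library: 3.57%, 3.82% and 3.47% in OV-CTRL, 3.71%, 5.52% and 4.30% in NVR-labelled, 0.461%, 0.977% and 0.789% in OV-L1-FGGY DMSO and 1.77%, 2.38% and 4.94% in ML355 libraries. OV-L1-FGGY DMSO was lowest, and its log2 ratio differed from that of OV-CTRL by -2.40 (exact p = 0.1). The log2 ratio of PSMB9 to PSMB6 was 0.81 higher in OV-L1-FGGY DMSO than in OV-CTRL (1.75-fold, exact p = 0.1). PSMB9 itself was not higher there, with mean CPM of 29.9 against 41.1, while PSMB6 had 108 against 262. The 3 catalytic pairs therefore did not move as a unit between the lines, since the PSMB8 and PSMB9 ratios were higher and the PSMB10 ratio lower.

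**Figure D4:**
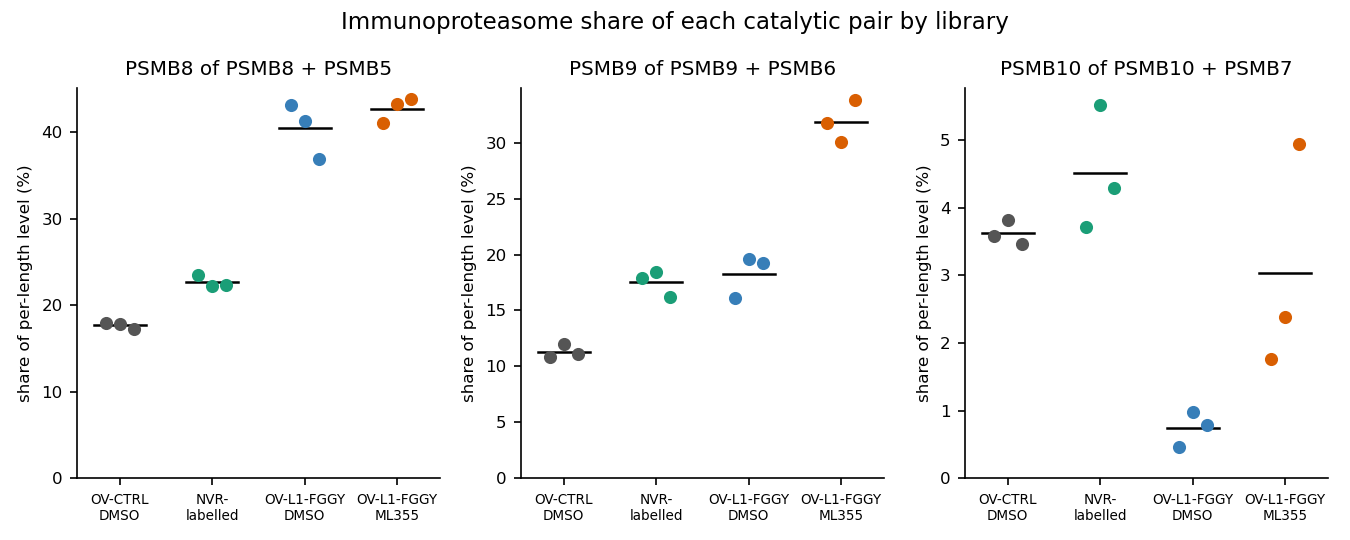
Share (%) of each immunoproteasome subunit in the summed per-length level of itself and its constitutive counterpart (vertical axes from 0) by library; bars are means of 3 libraries. The PSMB9 share reaches 30.1% to 33.8% with ML355. The PSMB8 share separates the OV-L1-FGGY DMSO and ML355 libraries (36.9% to 43.9%) from the OV-CTRL and NVR-labelled ones (17.2% to 23.5%).

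Between the lines in DMSO, members were called about as often as genes in general. OV-L1-FGGY DMSO had 11 of 46 members (23.9%) higher and 20 (43.5%) lower than OV-CTRL DMSO, where 32.5% of all genes tested were higher and 36.2% lower, and the medians were -0.14 over the members and -0.11 over all genes. Members of the cap made up much of the lower group, with 10 of 17 lower and 3 higher, beside 5 lower and 3 higher of 14 in the core. Of the 6 fits that left out 1 library, PSMD2 (lower) kept its call in 0 and PSMD6 (higher) in 2. PSMD7 (higher) and PSMB5 (lower) each kept theirs in 4. PSMD3, a lid subunit, had 449, 438 and 417 CPM in OV-CTRL and 65.1, 71.0 and 70.3 CPM in OV-L1-FGGY DMSO, a 6.32-fold difference (log2 fold change -2.66 ± 0.11, edgeR adjusted p = 3.98e-12). PSMF1 had 231, 213 and 196 CPM in OV-CTRL and 36.9, 38.5 and 43.3 CPM in OV-L1-FGGY DMSO, with a log2 fold change of -2.43 ± 0.12 (edgeR adjusted p = 4.03e-11). PSMB10 fell from 8.79, 7.94 and 6.52 CPM to 0.975, 1.95 and 1.31 CPM, with a log2 fold change of -2.45 ± 0.41 (edgeR adjusted p = 4.73e-05). In none of these genes did the lines overlap.

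On the higher side, PSMA1 had 53.7, 53.3 and 48.2 CPM in OV-L1-FGGY DMSO against 11.9, 9.23 and 9.24 CPM in OV-CTRL (log2 fold change 2.36 ± 0.21, edgeR adjusted p = 2.63e-08). PSME4, the activator PA200, had 160, 137 and 150 CPM against 55.7, 64.6 and 66.6 CPM (1.25 ± 0.12, edgeR adjusted p = 6.88e-08). PSMB8 had 82.5, 91.6 and 76.5 CPM against 45.6, 37.5 and 31.4 CPM, with a log2 fold change of 1.13 ± 0.14 (edgeR adjusted p = 1.62e-06). PSMB9, its genomic neighbour, went the other way in estimate, -0.46 ± 0.16, and was not called (edgeR adjusted p = 0.0182), though 5 alternatives called it, DESeq2 among them (-0.50, adjusted p = 0.00747).

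In this comparison many members had the sign of the genes around them, as genes in general did. The median log2 fold change of the 20 nearest tested genes was -2.53 around PSMD8, whose own value was -1.90, and -1.49 around PSMC4, also at -1.90. Around PSMA5 it was 1.31 beside 0.79, and around PSME4 0.89 beside 1.25. Over the 46 members the Spearman correlation between a gene and its neighbours' median was 0.61, against 0.37 over 17701 genes, and 33 of 46 members had the sign of their neighbours, near the 65.2% of all genes that did. For ML355 against DMSO the same correlation was 0.03 over the members. GC content ran along as well, with a Spearman correlation between GC percent and log2 fold change of -0.56 over the members and -0.37 over all genes. These correlations are descriptions: the points share libraries, and neighbouring genes share GC content. PSMB10 and PSMC1 departed from their surroundings, with neighbours at -0.19 and -0.33 beside own values of -2.45 and -2.15. PSMA1 also lay away from its neighbours, at 2.36 beside 0.87. All of these genes carry the limits of shared exon bases given above.

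**Figure D5:**
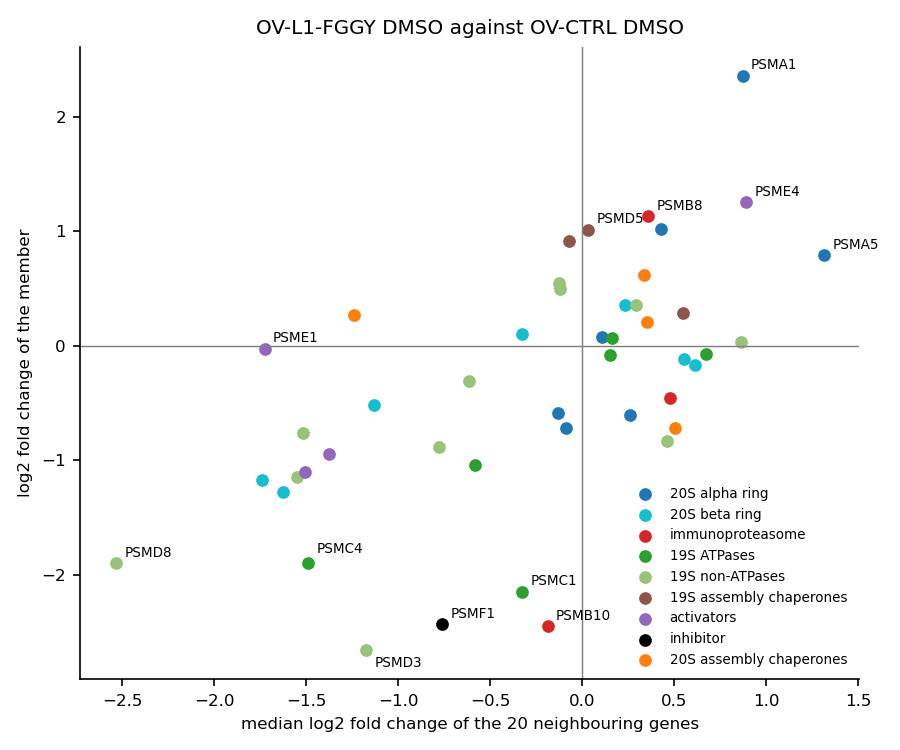
Log2 fold change of each tested member in OV-L1-FGGY DMSO against OV-CTRL DMSO (vertical axis) by the median log2 fold change of its 20 nearest tested genes (horizontal axis), coloured by class. PSMD8, with low-lying neighbours (-2.53), is low itself, and the Spearman correlation is 0.61 over 46 members and 0.37 over 17701 genes.

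The NVR-labelled libraries were also set against the DMSO control named in their label. Of 46 members, 21 (45.6%) were higher, 17 (37.0%) lower and 8 not called, where 38.2% of all genes tested were higher and 35.4% lower, and the medians were 0.25 and 0.08. With library size alone, which moved the median of all genes by -0.24, 16 were higher and 20 lower, so 44.4% instead of 55.3% of the called members were higher. This comparison shares its control with the ML355 comparison and crosses the sets of libraries described above. PSMB10 (8.56, 10.4 and 11.7 CPM against 0.975, 1.95 and 1.31), PSMF1 (235, 221 and 248 CPM against 36.9, 38.5 and 43.3) and PSMD3 (405, 400 and 391 CPM against 65.1, 71.0 and 70.3) were the furthest up. Their log2 fold changes were 2.85 ± 0.41, 2.57 ± 0.13 and 2.53 ± 0.11, with edgeR adjusted p-values of 8.1e-06, 1.86e-11 and 5.69e-12. PSMD5, PSMA1 and PSMD7 were the furthest down, at -1.70 ± 0.14, -1.58 ± 0.20 and -1.25 ± 0.14 (edgeR adjusted p = 6.92e-09, 1.73e-06 and 3.33e-07). PSMD5 had 29.0, 33.0 and 24.4 CPM against 101, 91.3 and 89.2 CPM. PSMA1 had 16.3, 11.3 and 24.5 CPM against 53.7, 53.3 and 48.2 CPM, and PSMD7 31.5, 35.5 and 26.01 CPM against 78.0, 73.0 and 70.9 CPM. None of these 6 genes overlapped between the groups. PSMB9 was higher by 1.49 ± 0.16 (edgeR adjusted p = 3.67e-07) and PSMB8 lower by a log2 fold change of -0.71 ± 0.14 (edgeR adjusted p = 0.000182), so the NVR-labelled libraries had more of the one and less of the other than OV-L1-FGGY DMSO.

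The difference between the NVR-labelled effect (against OV-CTRL) and the ML355 effect (against OV-L1-FGGY DMSO), which share no library, was called for 12 members. It was positive for 1 (2.17%) and negative for 11 (23.9%), where 16.8% of all genes tested were positive and 17.3% negative, with medians of -0.19 over the members and 0.02 over all genes. All 8 called members of the 19S particle were negative (PSMC1, PSMC6, PSMD3, PSMD6, PSMD7, PSMD8, PSMD11, PSMD14), joined by PSMD5, PSMD10 and PSMF1, and of the core only PSMA1 was called. PSMD10 kept its call in only 2 of the 12 fits that left out 1 library, and PSMD5 in 4. PSMC6, a cap ATPase, had 76.0, 76.0 and 77.9 CPM in OV-CTRL against 54.9, 52.0 and 51.1 in NVR-labelled, and 86.7, 81.0 and 73.2 in OV-L1-FGGY DMSO against 112, 114 and 118 with ML355. It was lower in the first pair and higher in the second, with a difference of -1.06 ± 0.14 (edgeR adjusted p = 1.24e-05). The difference was -1.995 ± 0.33 for PSMC1 (edgeR adjusted p = 0.000129), and -1.56 without ML355 replicate 3, in which PSMC1 had 39.0 CPM against 18.8 in the other two. For PSMA1 it was 1.29 ± 0.28 (edgeR adjusted p = 0.00135). None of PSMB8 (0.04 ± 0.19), PSMB9 (-0.49 ± 0.23) and PSMB10 (-1.55 ± 0.54) was called, with adjusted p-values of 0.896, 0.0903 and 0.0276, so a difference between the effects on the immunoproteasome was not shown. Agent, dose and line differ together between the effects and cannot be told apart.

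Genes that work with the proteasome were counted in lists that were chosen with earlier results of these data known. Their counts stand beside 21.3% of all genes higher and 23.5% lower with ML355, and 14.5% higher and 15.3% lower in NVR-labelled against OV-CTRL libraries. Of 12 partners without a PSM symbol, 7 rose and 2 fell with ML355 (median 0.52), while 0 were higher and 3 lower in NVR-labelled against OV-CTRL libraries (median -0.08). ZFAND2A, an arsenite-inducible proteasome-binding protein, rose by 1.59 on the log2 scale and the cap chaperone PAAF1 by 1.11, while the ligase UBE3C had -0.95. UCHL5, a deubiquitinase of the cap, was at -0.99 in the NVR-labelled libraries, where USP14 was at -0.52 and AKIRIN2, which brings proteasomes into the nucleus, at -0.55. Of 12 genes of the NRF1 pathway, 6 rose and 1 fell with ML355 (median 0.50), and 0 were higher and 4 lower in the NVR-labelled libraries (median -0.23). NFE2L1, the gene of NRF1, had 104 to 122 CPM in OV-L1-FGGY DMSO and 399 to 458 CPM with ML355, a log2 fold change of 1.92, and NGLY1, which activates NRF1 by removing its glycans, rose by 1.73. In OV-CTRL, NFE2L1 stood at 344 to 410 CPM and in NVR-labelled libraries at 272 to 422 CPM, and the difference between the effects was -2.10 (edgeR adjusted p = 7.96e-07). HCFC1, DDI2 and MAFF were lower in the NVR-labelled libraries, by log2 fold changes of -1.01, -0.87 and -0.47.

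Of 6 genes of ubiquitin and its activation, 2 rose and 1 fell with ML355, and 2 were higher and 0 lower in the NVR-labelled libraries. UBA1, an enzyme that activates ubiquitin, had a log2 fold change of -0.53 with ML355. Of 11 shuttle factors and segregase genes, 7 rose and 2 fell with ML355 (median 0.57), and 1 was higher and 3 lower in the NVR-labelled libraries. Of 14 interferon and class I genes, 6 rose and 1 fell with ML355 (median 0.38), and 6 were higher and 1 lower in the NVR-labelled libraries (median 0.45). IRF1, a transcription factor known to drive PSMB9, had 19.9 to 22.5 CPM in DMSO and 121 to 156 CPM with ML355 (log2 fold change 2.69), but 56.7 to 75.3 CPM in OV-CTRL and 60.5 to 71.6 CPM in NVR-labelled libraries, and the difference between the effects was -2.64 (edgeR adjusted p = 3.09e-08). TAP1, a peptide transporter gene beside PSMB9, rose by 0.93 with ML355 and had -0.09 in the NVR-labelled libraries. B2M and HLA-C were higher in the NVR-labelled libraries, by 0.79 and 0.87 on the log2 scale. With ML355, HLA-C rose as well, by 1.02, and B2M had 0.32, which was not called. Between the lines, 10 of the 14 were higher and 2 lower in OV-L1-FGGY DMSO than in OV-CTRL, with a median of 1.26, and B2M, HLA-B and NLRC5 had log2 fold changes of 2.44, 3.53 and 2.33. PSMB8 and its per-length share were higher in OV-L1-FGGY DMSO than in OV-CTRL along with these genes, and PSMB10 was lower. Of the same lists in OV-L1-FGGY DMSO against OV-CTRL, the partners had 2 higher and 5 lower, the NRF1 pathway 4 and 7, ubiquitin 4 and 1, and the shuttle factors 5 and 4, beside 32.5% of all genes higher and 36.2% lower. In NVR-labelled against OV-L1-FGGY DMSO libraries the partners had 3 higher and 3 lower, the NRF1 pathway 6 and 5, ubiquitin 2 and 4, the shuttle factors 3 and 7, and the interferon and class I genes 2 and 11, beside 38.2% of all genes higher and 35.4% lower.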

How the data were processed

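RNA was extracted with Trizol and libraries were made with a TruSeq RNA kit from NCI-H520 cells, 3 libraries in each of 4 groups. Per the labels and their processing notes, STAR 2.5.3a placed the reads on hg38 and the authors deposited raw read counts per gene from HTSeq 0.11.2; the annotation release and the strand setting were not given in the sources used here. The counts were tested as deposited with edgeR 4.0.16 under R 4.3.3 (filterByExpr, TMM factors, robust quasi-likelihood fit of 4 group means over all 12 libraries), with Benjamini-Hochberg adjustment over 17849 genes and a threshold of 0.01. Libraries held 16242082 to 27004768 counts, 3 counts correspond to 0.111 to 0.185 CPM, and the common biological coefficient of variation was 0.143. Alternatives used DESeq2 1.42.0 and limma 3.58.1 (voom), other scalings, filters and thresholds, only the groups compared, a replicate block, and each library left out. Ratios of catalytic subunits were compared by exact permutation. Positions, transcript lengths and exon overlaps came from GENCODE 44, to which 57532 of 58302 genes matched, with pandas 2.3.3 and scipy 1.17.1 in Python 3.11.15. Promoter sequence came from RefSeq. The fit was tested on simulated data.

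The members and all gene lists were chosen with earlier results of these data known, so neither is independent evidence of a direction. Full statistics were given for PSMB8, PSMB9 and PSMB10, for the 3 largest rises and 3 largest falls among called members without overlap in each comparison, and for the 3 largest called differences between the effects; up to 3 called genes with the smallest adjusted p were named per pathway list. PSMD8, PSMD4, PSME2, PSMF1 with ML355, PSMD14, PSMA1 and the genes named for shared exons, length or neighbours were added after their values were seen. Labels put the NVR libraries in OV-L1-FGGY cells, and the count table's headers give them no line name, unlike the other OV-L1-FGGY libraries. The headers of the OV-CTRL DMSO libraries give no line name either, and these columns were matched to their labels by elimination. Some genes of the pathway lists are not reported here by name.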

Additional observations from a re-analysis of the deposited data

Results flagged for a closer look

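The effects in the NVR-labelled libraries (against OV-CTRL DMSO) and with ML355 (against OV-L1-FGGY DMSO) differed, by a test of the difference itself with edgeR, for 7 of the members given full statistics. The difference of log2 fold changes was 1.29 for PSMA1, whose estimate was up in the first and down in the second. It was -1.995 for PSMC1 and -1.06 for PSMC6, both lower in the first and higher in the second. It was -0.62 for PSMD3 and -0.86 for PSMF1, which rose with ML355 and were not called in the NVR-labelled libraries. It was -0.71 for PSMD5 and -0.84 for PSMD7, which were lower in the NVR-labelled libraries and not called with ML355. Of 12 fits that each left out 1 library, the difference stayed called in 10 for PSMD3 and in 4 for PSMD5, and in all 12 for PSMC1.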

How the results depend on the processing

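Of 158 alternative counts of members, 140 stayed within 1.5 times the reported count, and none of the named members reversed. With ML355, library size alone gave 7 higher members, and requiring a change of 1 or more on the log2 scale gave 5 higher and 0 lower. For NVR-labelled against OV-CTRL DMSO, the higher members numbered 1 with library size alone, 1 with only the groups compared, 5 at an adjusted p under 0.05, and 1 with that minimum change, which also left 1 lower. They ranged from 1 to 9 when 1 library was left out. The same minimum left 6 lower against OV-L1-FGGY DMSO, 5 higher and 11 lower between the lines in DMSO, and 4 members in the difference between the effects. Fewer genes can pass this minimum by its construction; the cause of the other shifts was not tested. Of 463 alternatives for named members, 448 kept direction and side of the threshold. A call was gained in 9 (PSMB8, PSMB9) and lost in 6 (PSME1). Apart from the immunoproteasome genes, these members were chosen as large called changes, so such stability was partly fixed by the choice. Some calls outside this set were kept in 0 of 6 fits without 1 library. Examples are PSMC2 in NVR-labelled against OV-L1-FGGY DMSO and PSMD2 between the lines. With the replicate block, 11 members were higher and 3 lower with ML355, 2 and 11 in NVR-labelled against OV-CTRL, 21 and 16 against OV-L1-FGGY DMSO, 11 and 19 between the lines, and 12 in the difference. Deviations of libraries with equal replicate numbers correlated from -0.359 to 0.172. With 3 libraries per group, such values cannot show whether libraries were paired. Counts without the members that share exon bases on the same strand were added after seeing the data. Depth limits PSMB10 and PSMA6 most, with as few as 17 and 25 counts in a library.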
